A study of Homo sapiens with 12 samples.

Results

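The ZNF symbols name genes of zinc finger proteins, the largest family of DNA-binding proteins in the human genome. A gene was taken up here when its symbol was ZNF followed by digits alone and its mean level reached 10 FPKM over the 3 libraries of at least one cell population. FPKM counts read fragments per length of transcript and per total of mapped fragments. Of 479 such symbols among 56593 distinct symbols in the table, 134 reached that level. The RNA came from H1, an established human embryonic stem cell line, and from 3 populations sorted while H1 cells differentiated toward blood without feeder cells. Undifferentiated H1 cells were one group, and activin A with BMP4 gave APLNR+ mesoderm cells on day 2. VEGF with bFGF followed and gave CD31+CD34+ hemogenic endothelial progenitors (HEPs) on day 5 and CD43+ hematopoietic progenitors (HPCs) on day 8. Each of the 4 populations had 3 libraries, 12 in all. All of them descend from a single line. The methods speak of independent experiments in general, while the labels do not tie single libraries to cultures, and the p values measure the spread between these libraries.

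Most zinc finger proteins of this kind carry a run of C2H2 fingers, each a small fold held by a zinc ion that touches a few bases of DNA. Many also carry a KRAB domain at their start. It binds TRIM28 (KAP1), which brings the histone methyltransferase SETDB1, HP1 proteins (CBX1, CBX3 and CBX5) and histone deacetylases, and the target DNA is packed into heterochromatin. In embryonic stem cells this machinery is best known for silencing transposable elements. KRAB zinc finger genes lie in clusters, the largest of them on chromosome 19, and arose by local duplication. Other ZNF proteins act as activators, bind RNA, or work on ribosomes or the mitotic spindle.

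The summed FPKM of a library ranged from 568036 to 1576040, and FPKM carries no read totals, so absolute depth is unknown and no interval of counting error is given. The populations were checked against marker genes. Pluripotency markers summed to between 2020 and 2113 FPKM in H1 libraries and to between 147 and 172 in CD43+ libraries. The mesoderm list summed to between 561 and 620 FPKM in APLNR+ libraries, the endothelial list to between 455 and 611 in CD31+CD34+ libraries and the blood list to between 1194 and 1332 in CD43+ libraries. In that blood sum ITGA2B made up 567 to 585 FPKM and HBE1 482 to 564, while PTPRC was at 0 to 0.521. CD43+ libraries also held endothelial markers at between 237 and 318 FPKM, all 6 of them at 1 FPKM or more, and CD31+CD34+ libraries held mesoderm markers at between 407 and 461. Of that mesoderm sum APLNR itself made up 381 to 429 FPKM, HAND1 18.6 to 24.8 and EOMES 4.06 to 4.18. MIXL1, T and MESP1 were at most at 1.40. Pluripotency markers were still at between 743 and 818 FPKM in APLNR+ libraries and between 309 and 387 in CD31+CD34+ libraries. In CD31+CD34+ libraries LIN28A made up 188 to 233 FPKM of this and POU5F1 73.9 to 92.2, while SOX2 was at most at 0.0898. Neural markers stayed at or under 0.228 FPKM in every library, and the endoderm list reached 31.7 FPKM at most, in CD31+CD34+ libraries, where SOX17, which is also on the endothelial list, made up 20.6 to 28.6 FPKM, AFP 2.33 to 3.03 and FOXA2 under 1. The part of such other cells in the ZNF values was not tested. In bulk RNA, fewer cells of a type and less RNA per cell cannot be told apart.

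In the values as deposited, the ZNF genes were mostly expressed at low to moderate levels and had their highest median in H1. All 134 passed the filter on low values used for testing (1 FPKM in at least 3 libraries), and 0 were listed at 0 in any library. In H1, 103 genes averaged at least 10 FPKM, against 74 among APLNR+ mesoderm cells, 54 for the CD31+CD34+ HEPs and 55 for the CD43+ HPCs. The median over the 134 genes was 14.2 FPKM in H1 and 10.3 in APLNR+ cells, and the HEPs and HPCs had medians of 8.04 and 8.57. H1 was the population with the highest mean for 79 genes, CD31+CD34+ for 24, CD43+ for 17 and APLNR+ for 14. The genes were chosen by these same FPKM means, which are therefore given as a description. Over all genes tested, those with transcripts poor in G and C also lay higher in H1 and APLNR+ libraries, as described further on. The matching counts for all genes at 10 FPKM were not computed.

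The level was reached in all 4 populations by 25 genes, in 3 by 18, in 2 by 41 and in a single population by 50. Of those 50, 33 reached it in H1 alone. The highest population mean was under 2 times the lowest for 37 genes, at least 4 times for 51 and at least 10 times for 11, with a median of 2.96. Just inside the level lay ZNF778 (10.01 FPKM in its highest population), ZNF761 (10.2), ZNF730 (10.2), ZNF217 (10.2) and ZNF608 (10.5), and just outside it ZNF595 (9.96), ZNF808 (9.92), ZNF493 (9.90), ZNF772 (9.89) and ZNF836 (9.81).

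**Figure D1:**
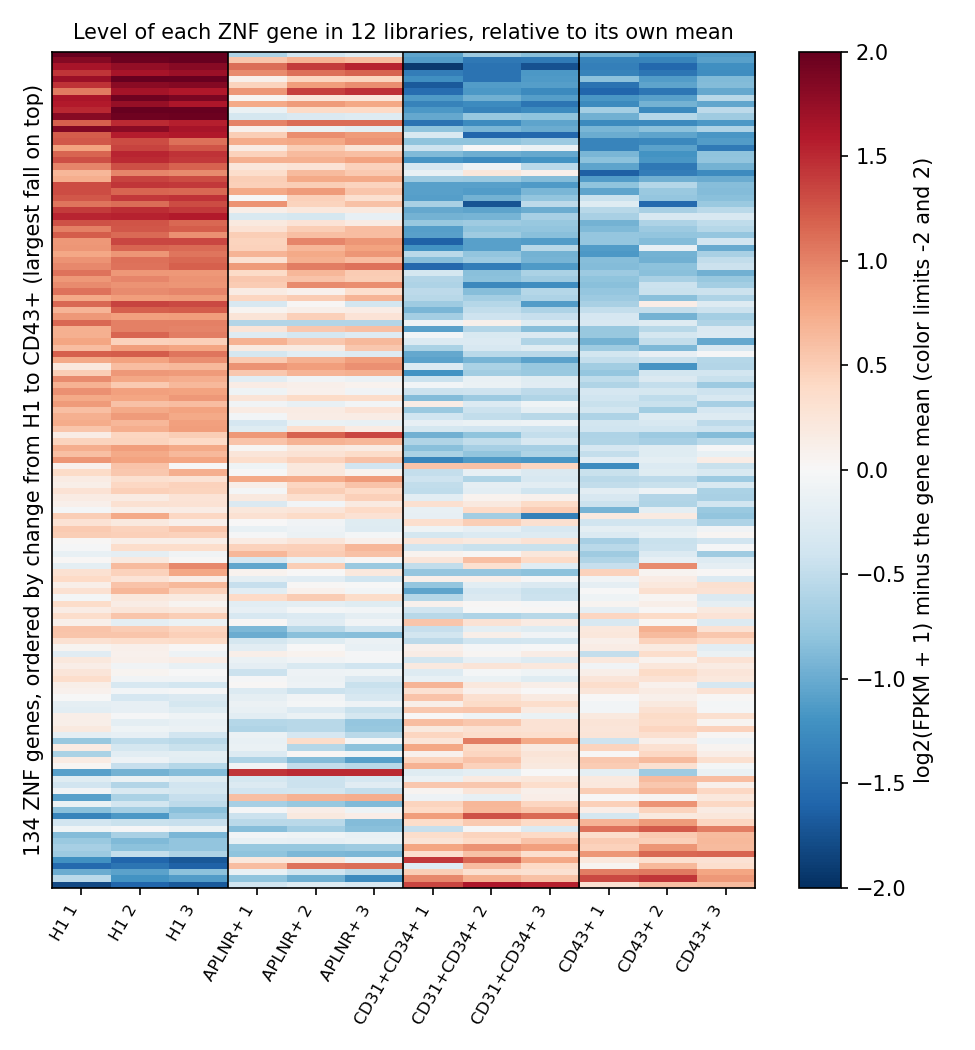
Each row is 1 of the 134 ZNF genes and each column 1 of the 12 libraries, colored by log2(FPKM + 1) minus the gene's own mean, with rows ordered by the change from H1 to CD43+. The values are as deposited. Most rows are red in the H1 columns and blue in the CD31+CD34+ and CD43+ columns, and a smaller block at the bottom shows the opposite.

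By symbol, 133 of the 134 genes matched the GENCODE release 29 annotation, and ZNF788 did not. The longest reading frame of 75 genes held the residues of a KRAB A box and that of 58 did not. The KRAB genes had a median of 11 C2H2 fingers and the others 7. ZNF462 had the most, with 33, and ZNF330, ZNF720 and ZNF738 had no finger of the pattern searched. Chromosome 19 carried 57 of the 133 genes and 48 of the 75 KRAB genes. Immediately next to another ZNF gene lay 72 of the 134, and 38 lay next to another gene of the set.

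Sequence shared with other gene records limits some values. Over 10% of the 50-base stretches of the transcripts of 14 genes also occurred in another gene, and how the authors' counting split such reads is not given in the sources used here. The share was 81.3% for ZNF625 (shared with the read-through gene ZNF625-ZNF20), 75.2% for ZNF320 (with ZNF468) and 48.3% for ZNF724 (with the adjacent record AC092329.3). It was 36.4% for ZNF410 (with the adjacent record AC005520.1), 28.2% for ZNF512, 25.9% for ZNF721 and 18.8% for ZNF587 (with ZNF417). For ZNF581 it was 18.4% (with ZNF580), for ZNF511 16.7% (with the adjacent record ZNF511-PRAP1) and for ZNF90 11.4%. The values of these genes are less certain. The share was counted on GENCODE 29 transcripts and does not measure the error of the deposited values, which was not tested.

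Promoters are shown for a pair of neighbors on chromosome 19 that rose together from H1 to APLNR+ cells, ZNF83 and ZNF611, and for ZNF577, a KRAB gene of the same chromosome arm that fell at that step. The sequences are from RefSeq on GRCh38.p14 and run from 250 bases before to 50 bases after the annotated start, 5′ to 3′ on the gene's strand, which is the minus strand for all of them. Capitals mark GGGCGG or its reverse complement (the box bound by SP1 and related factors) and CCGGAAG or its reverse complement (bound by ETS factors), which do not overlap in these sequences. ZNF83 is at chr19:52690447-52690746, ZNF611 at chr19:52734995-52735294 and ZNF577 at chr19:51887902-51888201.
ZNF83: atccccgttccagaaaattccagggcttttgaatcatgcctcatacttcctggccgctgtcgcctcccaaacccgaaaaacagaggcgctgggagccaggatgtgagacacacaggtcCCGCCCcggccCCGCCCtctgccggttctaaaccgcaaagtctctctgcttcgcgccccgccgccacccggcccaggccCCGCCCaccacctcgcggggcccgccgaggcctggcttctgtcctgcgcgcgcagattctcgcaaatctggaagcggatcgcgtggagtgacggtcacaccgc
ZNF611: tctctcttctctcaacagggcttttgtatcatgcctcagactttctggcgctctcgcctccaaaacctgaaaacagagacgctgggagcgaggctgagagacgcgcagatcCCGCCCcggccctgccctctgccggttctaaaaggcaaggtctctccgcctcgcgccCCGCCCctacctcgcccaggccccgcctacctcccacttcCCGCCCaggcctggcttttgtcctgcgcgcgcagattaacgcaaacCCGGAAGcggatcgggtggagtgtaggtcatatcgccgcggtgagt
ZNF577: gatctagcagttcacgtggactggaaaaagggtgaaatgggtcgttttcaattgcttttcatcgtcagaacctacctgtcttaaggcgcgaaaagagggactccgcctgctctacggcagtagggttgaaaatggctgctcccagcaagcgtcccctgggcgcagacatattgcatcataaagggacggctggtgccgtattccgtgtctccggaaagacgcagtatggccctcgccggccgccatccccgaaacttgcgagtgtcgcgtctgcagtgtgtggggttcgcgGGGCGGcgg

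The promoters of ZNF83 and ZNF611 were identical at 246 of 311 aligned positions (79.1%), against 49.0% and 50.6% for each of them with ZNF577. ZNF83 and ZNF611 each held 3 GGGCGG boxes and ZNF577 1, and ZNF611 held the single CCGGAAG of these promoters. Of the 134 genes, 118 had a promoter in the RefSeq table. GGGCGG on either strand occurred in 67.8% of them, 70.3% of the promoters of all tested genes and 44.6% of all promoters. CCGGAAG occurred in 45.8% of the ZNF promoters, 18.9% of those of tested genes and 10.7% of all. The octamer ATTTGCAT occurred in 3.39% of the ZNF promoters and 1.28% of those of tested genes, and the GATA motif AGATAAG in 0 of 118 and 1.49%. A match describes letters in this window and is not evidence of binding.

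Change between populations was tested with limma on log2(FPKM + 1) over all 14840 genes that passed the filter. A gene was called raised or lowered when it passed an adjusted p of 0.05 and changed by a factor of 2 or more on that scale, which understates changes at low levels. The level that chose the ZNF genes used the same FPKM values and favors genes that are high in a single population, so the counts below describe the set and are set beside those of all genes and of the 7718 genes that reach 10 FPKM in a population. Neighboring comparisons share a population.

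From H1 to APLNR+ cells, 6 ZNF genes rose and 17 fell. The 23 calls are 17.2% of the 134, against 15.9% of all genes tested and 16.1% of genes at 10 FPKM. Of all genes, 8.3% were raised and 7.62% lowered, and of genes at 10 FPKM 8.73% and 7.32%. The median log2 change of the ZNF genes was -0.40, against -0.12 over all genes tested. The largest falls were those of ZNF483, ZNF589, ZNF594 and ZNF649, and the largest rises those of ZNF521 and ZNF611.

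ZNF483, a KRAB gene, stood at 35.9, 42.2 and 42.4 FPKM in the H1 libraries and at 4.15, 5.05 and 5.62 in the APLNR+ libraries. The libraries did not overlap, as in 105 of the 134 ZNF genes and 9800 of the 14840 genes tested. The log2 change was -2.80 ± 0.13 (SE, limma adjusted p 2.76e-09). It stayed low, at 3.32 ± 0.491 FPKM in CD31+CD34+ and 2.72 ± 0.313 in CD43+ cells (SD, n = 3). ZNF589, a KRAB gene first described in blood stem cells, was at 47.9, 52.4 and 52.9 FPKM in H1 and 9.79, 10.3 and 10.6 in APLNR+ cells. Its log2 change was -2.22 ± 0.11 (adjusted p 7.3e-09), and it stood at 6.64 ± 0.713 FPKM in CD31+CD34+ and 7.30 ± 1.11 in CD43+ cells. ZNF594 dropped from 13.3 ± 1.08 to 2.99 ± 0.400 FPKM and ZNF239 from 13 ± 1.53 to 3.47 ± 0.322. All of these were highest in undifferentiated cells.

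Of 11 genes of the set listed for roles in transcription and cell fate, 3 fell at this step (ZNF589, ZNF219 and ZNF398) and 1 rose (ZNF521). Of all genes tested 15.9% were called, and 11 genes are too few for a comparison of shares. ZNF219, a partner of SOX9 in cartilage, was at 21.3, 19.3 and 19.3 FPKM in H1 and at 5.71, 5.72 and 5.67 in APLNR+ cells (log2 change -1.64 ± 0.11, adjusted p 1.38e-07). ZNF398, a KRAB gene with a known role in human pluripotency, dropped from 12.6 ± 2.12 to 4.64 ± 0.209 FPKM (log2 change -1.26, adjusted p 1.58e-05). ZNF770, on none of the role lists, dropped from 24.6 ± 4.95 to 7.24 ± 1.62 FPKM. The other falls were ZNF616, ZNF577, ZNF101, ZNF691, ZNF525, ZNF141, ZNF512, ZNF84 and ZNF738, with log2 changes from -1.57 to -1.01. With the GC trend of the transcripts removed, as described further on, ZNF512, ZNF84 and ZNF738 were not called and the other 14 were. These same 3 went under 2-fold without APLNR+ replicate 1 (-0.97, -0.97 and -0.999), and ZNF738 also without H1 replicate 1 or 2 or APLNR+ replicate 3 (-0.98 to -0.99).

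Among the rises, ZNF521 encodes a multi-finger cofactor of hematopoietic and mesenchymal progenitors. It was at 4.28, 4.64 and 4.07 FPKM in H1 and at 22.7, 32.0 and 32.5 in APLNR+ cells. The log2 change was 2.48 ± 0.22 (adjusted p 1.23e-06), and later levels were 18.0 ± 5.47 FPKM in CD31+CD34+ and 18.9 ± 4.11 in CD43+ cells, which overlapped. ZNF611 was at 2.85, 3.24 and 3.47 FPKM in H1 and at 21.1, 22.1 and 21.9 in APLNR+ cells (log2 change 2.44 ± 0.14, adjusted p 2.47e-08). It then dropped to 6.40 ± 0.630 FPKM in CD31+CD34+ cells (log2 change -1.62 as deposited, and -0.84 and not called with the GC trend removed), so that its APLNR+ libraries lay above the other 9.

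ZNF83, the neighbor of ZNF611, was at 5.97, 8.51 and 9.77 FPKM in H1 and at 21.3, 22.9 and 23.5 in APLNR+ cells (log2 change 1.40 ± 0.15, adjusted p 5.78e-06). In CD31+CD34+ cells it stood at 13.4 ± 1.60 FPKM. The KRAB gene ZNF792 rose from 2.39 ± 0.266 to 7.71 ± 0.397 FPKM, and ZNF516, a regulator of brown fat genes, from 1.07 ± 0.374 to 5.24 ± 0.762. ZNF710 went from 4.36 ± 1.18 to 9.97 ± 2.45 FPKM, at the edge of the call (log2 change 1.03 ± 0.22, adjusted p 0.00154). Without H1 replicate 1 or 2 or APLNR+ replicate 2 or 3 its change was under 2-fold (0.90, 0.99, 0.91 and 0.95).

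**Figure D2:**
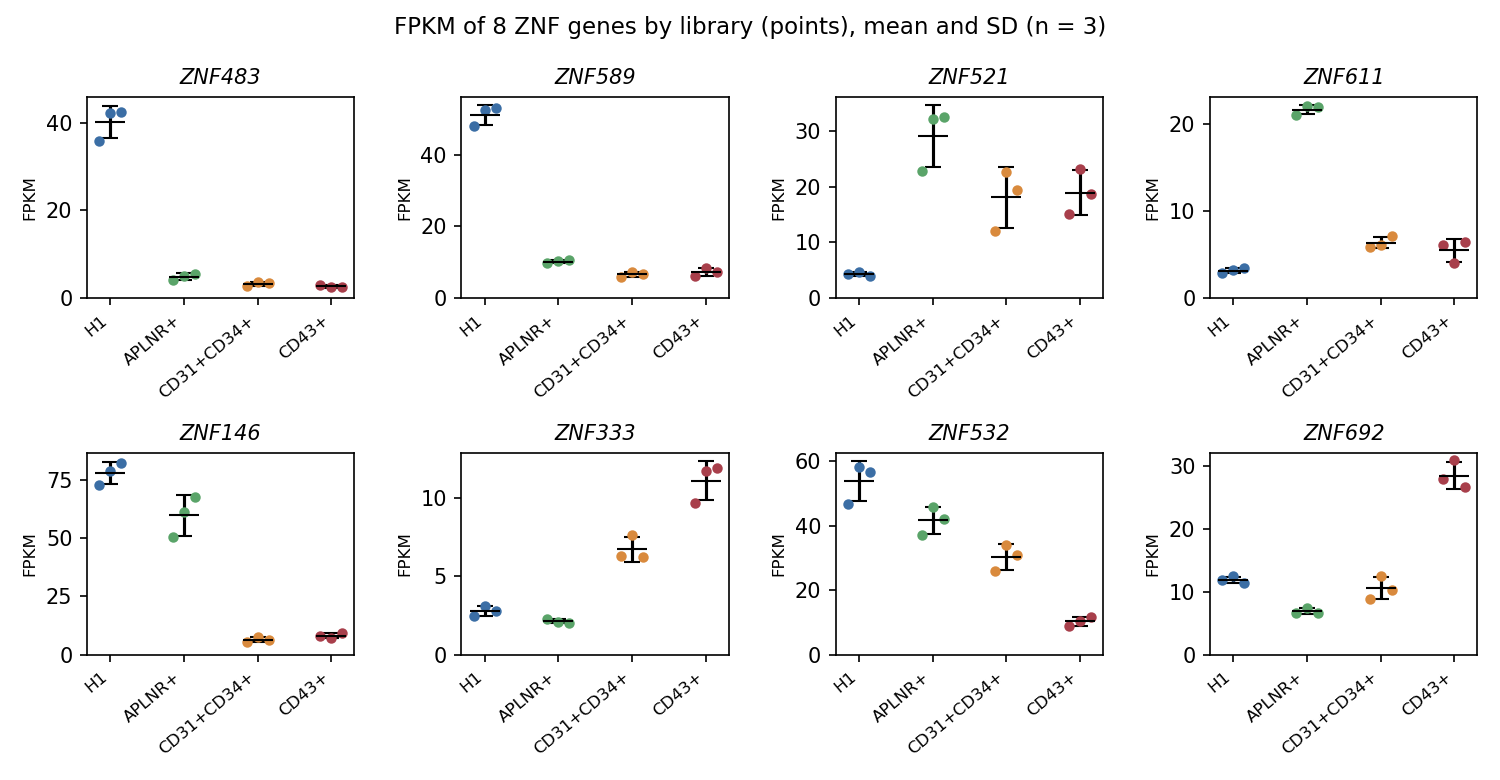
FPKM (linear axis) of 8 ZNF genes in the 3 libraries of each population, with the mean and SD as bars. ZNF483 and ZNF589 are high in H1 alone, ZNF611 in APLNR+ cells alone, ZNF146 in H1 and APLNR+ cells, ZNF532 falls to 10.3 FPKM in CD43+ cells and ZNF692 peaks there at 28.5 FPKM.

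The step from APLNR+ to CD31+CD34+ cells had the most calls of the 3 steps. Here 10 ZNF genes rose and 43 fell, 39.6% of the set, against 29.6% of all genes tested and 38.6% of genes at 10 FPKM. Of all genes, 12.5% were raised and 17.1% lowered. Among genes at 10 FPKM, 17.4% were raised and 21.2% lowered, and among the ZNF genes 7.46% and 32.1%. The median log2 change was -0.48 in the set and -0.01 over all genes.

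The change of a gene at this step moved with the base composition of its transcript, in all genes and in the ZNF genes. Across 14593 genes with a transcript in GENCODE, the log2 change and the GC content of the longest transcript had a Pearson r of 0.51, and across 133 ZNF genes 0.75. Genes are not independent replicates, they share the same 6 libraries, and r is given as a description. All genes with at most 38% GC had a median change of -0.98, and all genes with over 60% GC one of 0.65. The classes between, in order of rising GC, had medians of -0.82, -0.41, -0.03, 0.30 and 0.55 over all genes. For the ZNF genes the medians were -1.19 over the 21 at most at 38%, -1.31 over the 31 between 38 and 42%, -0.57 over 28 between 42 and 46%, -0.12 over 14 between 46 and 50%, 0.37 over 16 between 50 and 55%, 0.71 over 9 between 55 and 60% and 0.80 over the 14 above.

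The ZNF transcripts are AT-rich. Their median GC content was 43.9%, against 48.9% over all genes tested, and 60.2% of them, against 39.3%, had at most 46%. Of the 43 falls, 13 lay in the lowest GC class (21 ZNF genes), 20 in the next (31) and 8 in the third (28). Of all genes in these classes, 49.0%, 40.0% and 22.0% were lowered. Of the 10 rises, 9 lay above 50% GC. Of all genes, 14.1% were raised between 50 and 55% GC, 23.3% between 55 and 60% and 29.6% above 60%. For the other comparisons the r over the ZNF genes was 0.18 (APLNR+ against H1), -0.23 (CD43+ against CD31+CD34+) and 0.62 (CD43+ against H1), and over all genes 0.05, -0.21 and 0.32. Transcript length had an r of -0.19 with the change of the ZNF genes from APLNR+ to CD31+CD34+ cells.

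**Figure D3:**
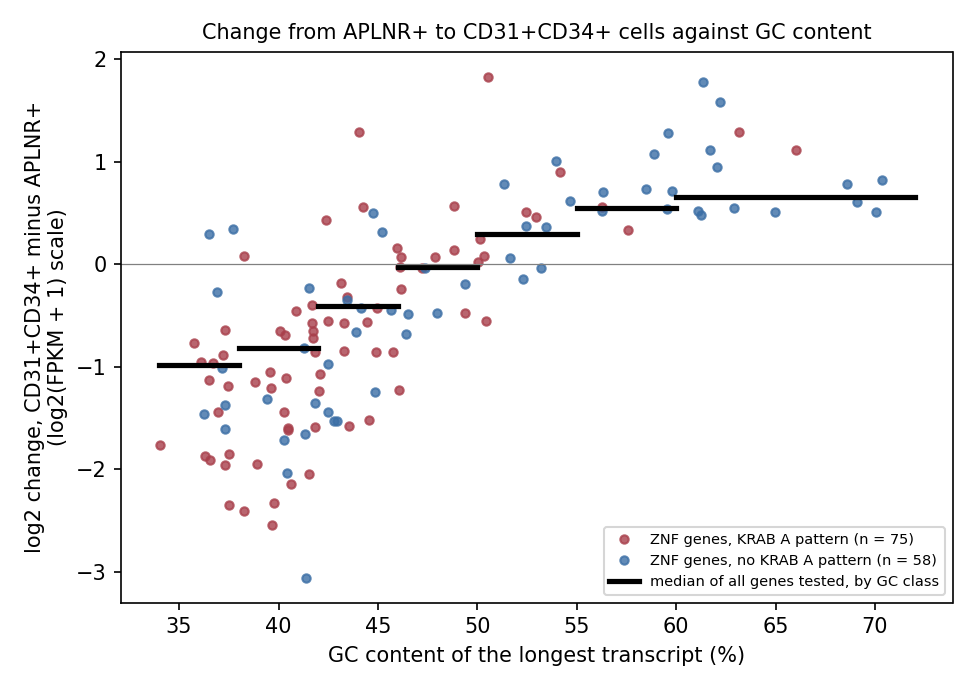
Each point is 1 of 133 ZNF genes, with the GC content of its longest transcript (%) across and its log2 change from APLNR+ to CD31+CD34+ cells upward, red with a KRAB A pattern and blue without. The black lines are the medians of all genes tested in each GC class and climb from -0.98 to 0.65. The ZNF genes climb as well, with class medians below the lines up to 50% GC and above them over 50%.

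The same gradient was seen library by library. In each of the 6 H1 and APLNR+ libraries the genes of at most 38% GC lay above their own 12-library mean, by between 0.29 and 0.64 on the log2 scale. In each of the 6 CD31+CD34+ and CD43+ libraries they lay below it, by between 0.37 and 0.64. Which of the pair of sequencing companies named in the methods made which library is not given in the sources used here, so a difference between populations and one between sequencing or library lots cannot be told apart. The ZNF changes are therefore given as deposited and after a smooth trend on GC content was subtracted from each library.

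**Figure D4:**
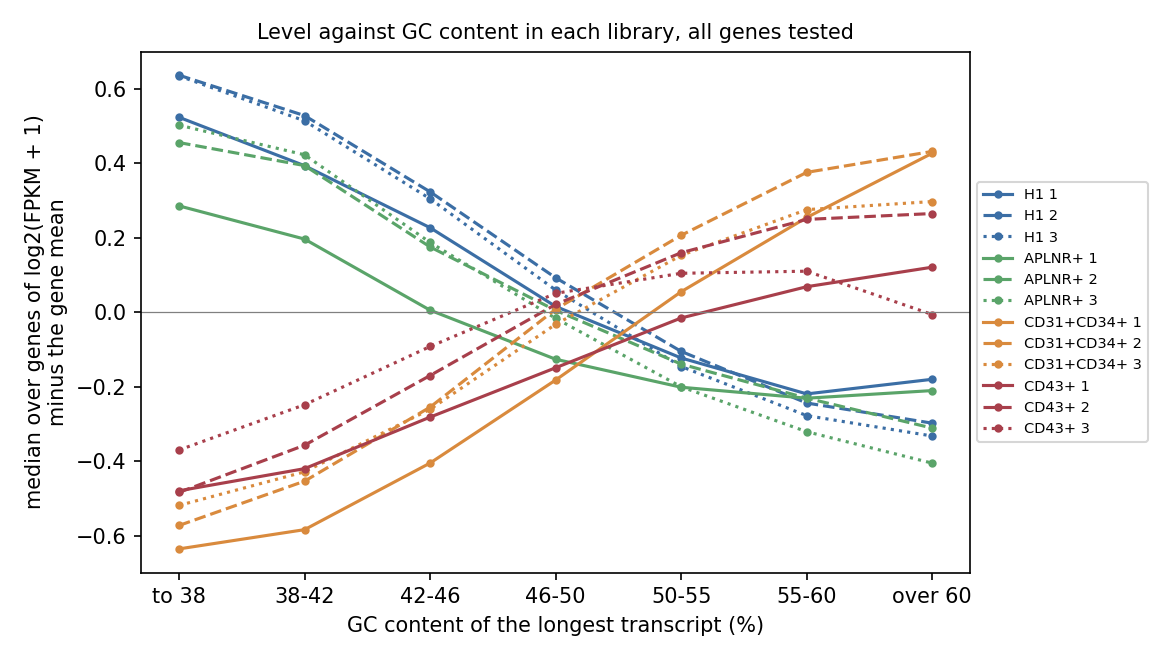
For each of the 12 libraries (a line each, colored by population), the median over all tested genes of log2(FPKM + 1) minus the gene's mean is plotted for 7 classes of transcript GC content (%). H1 and APLNR+ lines start above 0 in the AT-rich classes and end below it, and CD31+CD34+ lines do the reverse, as do the CD43+ lines except that replicate 3 ends near 0.

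With the GC trend removed, 6 ZNF genes rose and 12 fell from APLNR+ to CD31+CD34+ cells, against 18.8% of all genes called (8.91% raised, 9.86% lowered). All 12 falls were also falls in the values as deposited, as were 3 of the 6 rises, and 0 calls turned round. The median change of the ZNF genes was then -0.11, against 0.00 over all genes. In the other comparisons 6 rose and 14 fell from H1 to APLNR+ cells (all genes 15.6% called, 9.46% raised and 6.11% lowered), 1 rose and 3 fell from CD31+CD34+ to CD43+ cells (13.6%, 5.6% raised and 8.03% lowered), and 11 rose and 38 fell from H1 to CD43+ cells (29.9%, 14.8% raised and 15% lowered).

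**Figure D5:**
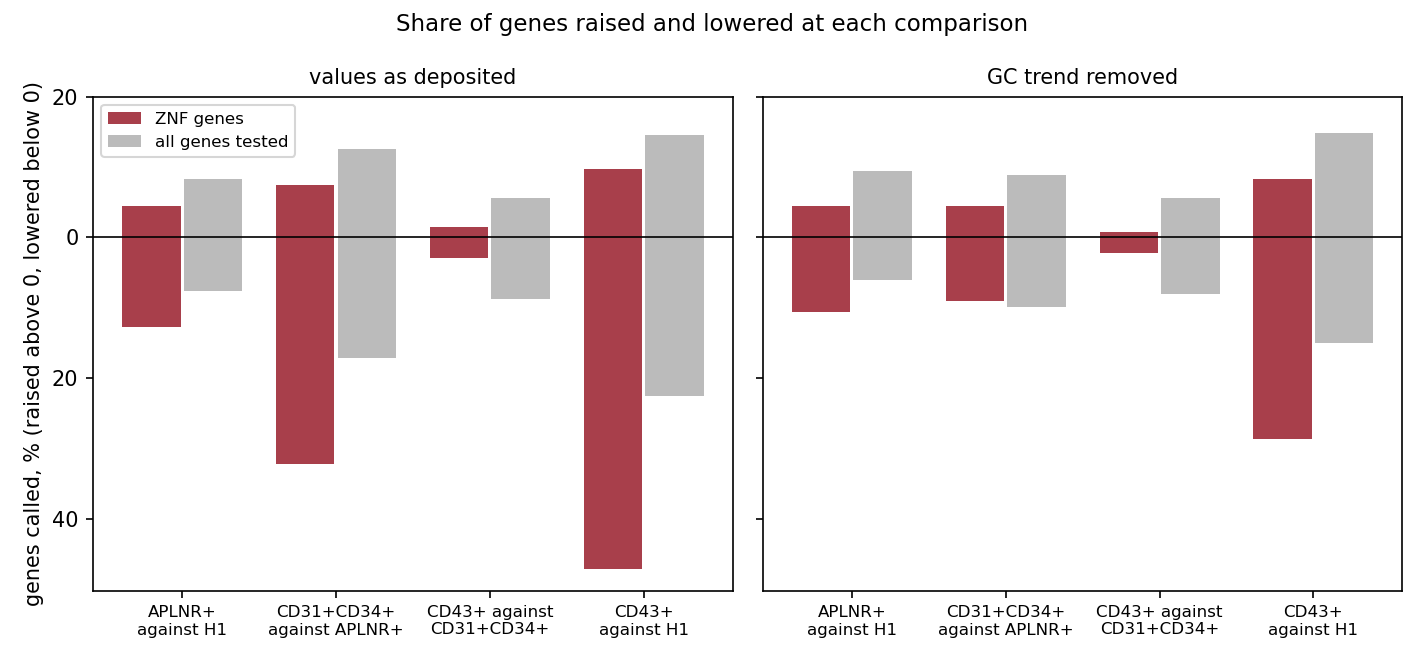
Percent of genes raised (above 0) and lowered (below 0) in each comparison, in the ZNF set (red) and in all genes tested (grey), for the values as deposited (left) and with the GC trend removed (right). In the second comparison the lowered share of the set is 32.1% at left, while at right 12 of 133 genes are lowered beside 9.86% of all genes.

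The 12 falls at that step that remained with the GC trend removed were ZNF146, ZNF714, ZNF724, ZNF90, ZNF732, ZNF845, ZNF766, ZNF121, ZNF814, ZNF69, ZNF525 and ZNF552. All but ZNF732, on chromosome 4, lie on chromosome 19, which carries 57 of the 133 genes with a known position. The share on that chromosome was not tested. ZNF146, whose protein consists almost wholly of fingers and lacks a KRAB domain, was at 50.6, 61.2 and 68.0 FPKM in APLNR+ cells and at 5.31, 7.56 and 6.11 in CD31+CD34+ cells. This was the largest fall of the set as deposited (log2 change -3.06 ± 0.14, adjusted p 2.88e-09) and with the GC trend removed (-2.36, adjusted p 2.56e-09). It had stood at 78.2 ± 4.77 FPKM in H1 and remained at 8.10 ± 1.08 in CD43+ cells.

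ZNF121, also without a KRAB pattern, was at 69.2, 88.5 and 90.2 FPKM in H1, at 33.9, 44.7 and 48.1 in APLNR+ cells and at 7.05, 10.8 and 11 in CD31+CD34+ cells (log2 change at the latter step -2.03 ± 0.20, adjusted p 1.96e-06, and -1.25 with the GC trend removed). The KRAB gene ZNF714 was at 27.0, 30.6 and 31.9 FPKM in APLNR+ cells and at 4.22, 4.96 and 6.06 in CD31+CD34+ cells (log2 change -2.35, and -1.39 with the GC trend removed). ZNF90, ZNF845, ZNF525 and ZNF766 dropped from between 7.37 and 18.5 FPKM to between 1.18 and 2.90. ZNF724 dropped from 21.6 ± 4.50 to 2.84 ± 0.498 FPKM, with 48.3% of its 50-base stretches shared, and ZNF732 from 9.97 ± 0.864 to 1.07 ± 0.240. In every one of these the lowest APLNR+ library lay above the highest CD31+CD34+ library, but they were named among calls without such overlap. At this step the libraries of 118 of the 134 ZNF genes and of 11241 of the 14840 genes tested did not overlap.

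The other 31 falls as deposited were not called once the GC trend was removed or had no GC value. ZNF721 dropped from 23.3 ± 0.942 to 5.23 ± 0.188 FPKM as deposited, and its change was -0.99 with the GC trend removed. ZNF143, an activator bound at many promoters, went from 16.8 ± 0.824 to 5.57 ± 0.860 FPKM (log2 change -1.45, and -0.86 with the GC trend removed). ZNF281, a factor of the pluripotency network that binds GC-rich sites, went from 12.9 ± 1.54 to 4.42 ± 0.632 FPKM (-1.36 and -0.71). ZNF638, an RNA-binding protein that also works in gene silencing, went from 44.0 ± 5.51 to 17.2 ± 3.14 FPKM (-1.31 and -0.46). The calls of ZNF24 and ZNF28 were lost without CD31+CD34+ replicate 3 (-0.91 and -0.75), and that of ZNF24 also without APLNR+ replicate 1 (-0.98).

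Of the rises, ZNF792, ZNF428 and ZNF333 were called with and without the GC trend. ZNF792 was at 7.30, 8.09 and 7.75 FPKM in APLNR+ cells and at 26.6, 32.5 and 31.1 in CD31+CD34+ cells (log2 change 1.83 ± 0.11, adjusted p 4.05e-08, and 1.67 with the GC trend removed). It then stood at 12.4, 15.6 and 15.8 FPKM in CD43+ cells, so that CD31+CD34+ cells were its peak. ZNF428 was at 7.74, 6.78 and 5.34 FPKM in APLNR+ cells and at 28.7, 24.1 and 22.0 in CD31+CD34+ cells (1.77 ± 0.20, adjusted p 5.9e-06, and 1.13 with the GC trend removed). ZNF333, a KRAB gene of 44% GC, was at 2.28, 2.10 and 2.04 FPKM in APLNR+ cells and at 6.28, 7.63 and 6.23 in CD31+CD34+ cells (1.29 ± 0.11, adjusted p 7.02e-07, and 1.71 with the GC trend removed). It went against the gradient of its GC class.

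ZNF672, ZNF282, ZNF581, ZNF205, ZNF710, ZNF76 and ZNF516 were called raised as deposited alone. Their changes lay between 1.01 and 1.59 as deposited, and between 0.44 and 0.94 with the GC trend removed. ZNF76 is the paralog of ZNF143, and stood at 3.75 ± 0.587 FPKM in APLNR+ and 8.99 ± 0.572 in CD31+CD34+ cells. Leaving out 1 library took ZNF76 (without APLNR+ replicate 3, 0.97), ZNF710 (without APLNR+ replicate 1, 0.91) and ZNF516 (without APLNR+ replicate 3, 0.90, or CD31+CD34+ replicate 1 or 2, 0.86 and 0.99) under 2-fold. ZNF264, ZNF451 and ZNF292 were called raised with the GC trend removed alone, with changes of 1.02, 1.29 and 1.30.

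Few ZNF genes changed from CD31+CD34+ to CD43+ cells. Here 2 rose and 4 fell, 4.48% of the set, against 14.4% of all genes tested and 17.6% of genes at 10 FPKM. Of all genes, 5.58% were raised and 8.79% lowered, and of genes at 10 FPKM 6.35% and 11.2%. At an adjusted p under 0.05 with no minimum change, 55 of the 134 (41.0%) differed, against 53.6% of all genes tested. The same counts were 90 (67.2%, all genes 57.9%) from H1 to APLNR+ cells, 116 (86.6%, all genes 73.8%) from APLNR+ to CD31+CD34+ cells and 112 (83.6%, all genes 74.6%) between H1 and CD43+ cells. The median log2 change was 0.08, against -0.00 over all genes tested.

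ZNF532, known as a fusion partner of NUT in carcinoma, was at 26.0, 34 and 31.0 FPKM in CD31+CD34+ cells and at 8.72, 10.5 and 11.6 in CD43+ cells (log2 change -1.48 ± 0.13, adjusted p 2.08e-06, and -1.56 with the GC trend removed). ZNF462, the gene with 33 fingers, was at 7.10, 9.75 and 8.90 FPKM in CD31+CD34+ cells and at 3.33, 4.12 and 3.06 in CD43+ cells, after 23.1 ± 4.61 FPKM in H1 (log2 change at the last step -1.09 ± 0.16, adjusted p 0.000125). ZNF423, the paralog of ZNF521 and a cofactor of BMP-activated SMAD proteins, was at 11.1, 11.2 and 9.94 FPKM in CD31+CD34+ cells and at 2.38, 5.70 and 4.98 in CD43+ cells (-1.19 ± 0.24, adjusted p 0.00133). ZNF710 dropped from 22.5 ± 3.53 to 10.4 ± 2.40 FPKM (-1.06). With the GC trend removed ZNF532, ZNF462 and ZNF423 were still called and ZNF710 was not (-0.81). The calls of ZNF462 (without CD31+CD34+ replicate 2, -1.0), ZNF423 (without CD43+ replicate 1, -0.89) and ZNF710 (without CD31+CD34+ replicate 2 or CD43+ replicate 1, -0.96 and -0.87) were each lost without 1 library. The count of calls was 9 without CD31+CD34+ replicate 1 or CD43+ replicate 2 and 4 without CD31+CD34+ replicate 2 or CD43+ replicate 1.

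ZNF692 rose at the last step, from 8.89, 12.4 and 10.3 FPKM in CD31+CD34+ cells to 27.9, 30.9 and 26.6 in CD43+ cells (log2 change 1.36 ± 0.11, adjusted p 8.74e-07, and 1.58 with the GC trend removed). Its CD43+ libraries lay above the other 9. ZNF22 was at 3.90, 4.56 and 4.42 FPKM in CD31+CD34+ cells and at 9.42, 9.56 and 12.5 in CD43+ cells, after 20.5 ± 0.755 FPKM in H1 (log2 change at the last step 1.11 ± 0.11, adjusted p 5.32e-06). Its change was 0.96 with the GC trend removed and 0.99 without CD43+ replicate 3, under 2-fold in both. None of these 6 genes carries the KRAB pattern. Among the 75 KRAB genes 0 passed both thresholds here, with or without the GC trend.

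Between the ends of the series, 13 ZNF genes were higher and 63 lower in CD43+ than in H1 cells, 56.7% of the set, against 37.1% of all genes tested and 42.5% of genes at 10 FPKM. Over all 409 ZNF genes tested, whether or not they reached the level, 37.7% were called (5.62% raised, 32% lowered). Of all genes, 14.6% were raised and 22.5% lowered, and of genes at 10 FPKM 17.6% and 24.9%. The largest falls were ZNF483 (log2 change -3.47 ± 0.13, adjusted p 1.79e-10), ZNF525 (-3.18, from 19.6 ± 1.12 to 1.29 ± 0.232 FPKM), ZNF146 (-3.13), ZNF732 (-2.94) and ZNF616 (-2.83, from 16.9 ± 1.85 to 1.51 ± 0.268 FPKM). All 5 were also called with the GC trend removed, with changes from -2.72 to -2.01. In all, 36 of the 63 falls and 9 of the 13 rises were called both ways. The rises called both ways were ZNF792, ZNF428, ZNF276, ZNF521, ZNF516, ZNF333, ZNF672, ZNF124 and ZNF410.

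Some of these rises built up over several populations. ZNF124, a KRAB gene and the second highest of the set on average, was at 22.5, 20.3 and 21.8 FPKM in H1, at 34.4, 34 and 34.7 in APLNR+ cells. The CD31+CD34+ libraries read 45.7, 50.7 and 57.0 FPKM and the CD43+ libraries 54.5, 53.5 and 60.6. Libraries of each population lay above those of the one before, except that CD31+CD34+ and CD43+ libraries overlapped (CD43+ against H1, log2 change 1.34 ± 0.09, adjusted p 5.29e-08). ZNF410, the activator of CHD4, a helicase of the NuRD complex, went from 12.8 ± 1.34 FPKM in H1 through 21.5 ± 0.705 and 30.9 ± 1.05 to 33.2 ± 3.42 in CD43+ cells (1.31 ± 0.10, adjusted p 1.02e-07), with 36.4% of its 50-base stretches shared. The CD31+CD34+ and CD43+ libraries of ZNF410 overlapped as well. CHD4 stood at 74.9 ± 8.67, 71.8 ± 3.45, 99.3 ± 5.92 and 99.6 ± 16.4 FPKM in the same order of populations. ZNF276 went from 2.29 ± 0.295 FPKM in H1 to 11.4 ± 1.20 in CD43+ cells.

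Of the 134 genes, 47 were called in no comparison, and 43 of these were not called with the GC trend removed either. The share of all genes tested that were called in no comparison was not computed, so these counts are a description. The 10 highest means belonged to ZNF207, ZNF124, ZNF593, ZNF146, ZNF544, ZNF121, ZNF638, ZNF532, ZNF511 and ZNF410, of which ZNF207, ZNF593, ZNF544 and ZNF511 were called nowhere as deposited. ZNF207 (BuGZ), a spindle assembly factor, was the highest of the set in all 4 populations, with 80.9, 111 and 117 FPKM in H1, 53.5, 75.7 and 73.6 in APLNR+ cells. The CD31+CD34+ libraries read 43.1, 64.1 and 60.3 FPKM and the CD43+ libraries 65.6, 86.4 and 92.4. Replicate 1 was the lowest of each population. The smallest spread of population means was that of ZNF544 (34.6 to 39.3 FPKM), ZNF609 (14 to 16.2), ZNF3 (20.7 to 26.1), ZNF622 (18.2 to 24.9) and ZNF7 (10.3 to 14.1). The 25 genes at 10 FPKM in every population had 0 calls from H1 to APLNR+ cells, 1 rise and 2 falls at the next step, 1 fall at the last and 2 rises and 4 falls between H1 and CD43+ cells. In the same order 15.9%, 29.6%, 14.4% and 37.1% of all genes tested were called. These genes were picked by the same means that the calls compare. That leaves out genes low in any population, so few calls are built in.

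Of 9 ZNF genes listed for work on RNA, ribosomes or the spindle, 6 reached the level, too few to set their share of calls against that of all genes. As deposited, ZNF638 fell from APLNR+ to CD31+CD34+ cells, and from H1 to CD43+ cells (log2 change -1.43), and with the GC trend removed 0 of the 6 passed both thresholds in any comparison. ZNF593, a factor of the 60S ribosomal subunit, stood at 32.6 ± 8.02, 26.5 ± 6.90, 51.9 ± 11.5 and 45.4 ± 6.23 FPKM in H1, APLNR+, CD31+CD34+ and CD43+ cells, and ZNF622, which acts on the same subunit, at 22.1 ± 3.99, 18.8 ± 1.78, 18.2 ± 0.774 and 24.9 ± 0.640. ZNF598, a ubiquitin ligase that marks collided ribosomes, stayed between 7.37 and 11.1 FPKM, and ZNF346, which binds double-stranded RNA, between 8.17 and 12.2. ZNF326 (5.19 FPKM in its highest population), ZNF473 (7.03) and ZNF830 (7.26) were under the level.

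Of 15 ZNF genes listed for roles in transcription and cell fate, 11 reached the level. Their median log2 change from H1 to APLNR+ cells was -0.52. At the next step 2 fell (ZNF143, ZNF281) and 0 with the GC trend removed, and at the last step ZNF423 and ZNF462 fell. Of all genes tested, 17.1% and 8.79% were lowered at these steps as deposited. Between H1 and CD43+ cells 1 was higher and 7 lower as deposited. Of all genes tested 37.1% were called there (14.6% raised, 22.5% lowered), and of the whole ZNF set 56.7%. As said above, 11 genes are too few for a comparison of shares. With the GC trend removed the counts between H1 and CD43+ cells were the same but not the genes. ZNF268 was called as deposited alone (-1.50 and -0.82) and ZNF423 with the GC trend removed alone (-0.88 and -1.15). ZNF217, a corepressor component amplified in tumors, stayed between 5.22 and 10.2 FPKM, and ZNF263 between 18.1 and 27.3, and neither passed both thresholds in any comparison. ZNF148, ZNF300, ZNF503 and ZNF703 were under the level, at 9.38, 5.5, 0.832 and 1.08 FPKM in their highest population.

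Of 8 KRAB genes listed for binding retrotransposons, 3 reached the level. ZNF649, which binds LINE-1 elements, was at 28.8, 29.1 and 30 FPKM in H1 and at 7.43, 7.15 and 8.28 in APLNR+ cells (log2 change -1.82 ± 0.11, adjusted p 5.96e-08), and at 4.80 ± 0.664 and 6.74 ± 0.970 in the later populations. ZNF93, which also binds LINE-1 elements, stood at 15.9, 24.8 and 24.1 FPKM in H1, 13.2, 16.1 and 16.1 in APLNR+ cells, and its later libraries read 5.13, 5.08 and 4.57 (CD31+CD34+) and 3.69, 4.24 and 4.09 (CD43+). Its fall was called from APLNR+ to CD31+CD34+ cells as deposited (-1.44, adjusted p 3.23e-06) but not with the GC trend removed (-0.64), and from H1 to CD43+ cells both ways (-2.15 and -1.35). ZNF587, which binds LTRs of HERV-K, stayed between 7.35 and 14.1 FPKM with 0 calls. ZNF91 (7.98 FPKM in its highest population), ZNF417 (7.40), ZNF765 (9.51), ZNF808 and ZNF534 (0.00605) were under the level.

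KRAB genes and other ZNF genes differed in base composition, and their counts are given with both treatments. The median GC content was 42% over the 75 KRAB genes and 47.7% over the 58 others. From H1 to APLNR+ cells 3 KRAB genes rose and 11 fell, and 3 and 9 did so with the GC trend removed. Of the others 3 rose and 6 fell, and 3 and 5 with the GC trend removed. From APLNR+ to CD31+CD34+ cells 4 KRAB genes rose and 28 fell as deposited, and 3 rose and 10 fell with the GC trend removed. The others had 6 rises and 14 falls as deposited, and 3 rises and 2 falls with the GC trend removed. Between H1 and CD43+ cells 3 KRAB genes were higher and 43 lower as deposited, and 5 and 22 with the GC trend removed. Of the others 10 were higher and 19 lower as deposited, and 6 and 16 with the GC trend removed. Of all genes tested, 8.3%, 12.5% and 14.6% were raised and 7.62%, 17.1% and 22.5% lowered in these 3 comparisons as deposited. With the GC trend removed 9.46%, 8.91% and 14.8% were raised and 6.11%, 9.86% and 15% lowered. The difference between the classes was not tested.

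By position, 22 of the 57 genes on chromosome 19 fell from APLNR+ to CD31+CD34+ cells as deposited and 11 with the GC trend removed, and on the other chromosomes 20 and 1 of 76. Of all genes tested, 17.1% were lowered at this step as deposited and 9.86% with the GC trend removed. The share over all genes of chromosome 19 was not computed, and the difference by position was not tested. In the remaining comparisons the falls on chromosome 19 and elsewhere were 6 and 11 from H1 to APLNR+ cells (5 and 9 with the GC trend removed), 0 and 4 at the last step (0 and 3), and 30 and 32 between H1 and CD43+ cells (16 and 22). In the same order 7.62%, 8.79% and 22.5% of all genes tested were lowered (6.11%, 8.03% and 15% with the GC trend removed). Both members of a pair of neighboring genes of the set could be followed for 22 pairs. Some pairs share a gene, such as ZNF141, ZNF93 or ZNF682, and such pairs are not independent. From H1 to APLNR+ cells both were called in the same direction in 2 pairs, ZNF83 with ZNF611 upward and ZNF577 with ZNF649 downward, and in opposite directions in 0. From APLNR+ to CD31+CD34+ cells 7 pairs had 2 falls, and from H1 to CD43+ cells 12 pairs moved together and 1, ZNF124 with ZNF669, apart. With the GC trend removed, the same 2 pairs were called from H1 to APLNR+ cells. Of the 7 pairs at the next step 1 was left, ZNF525 with ZNF845, and between H1 and CD43+ cells 1 pair rose (ZNF83 with ZNF611, not called there as deposited), 6 fell together and ZNF124 with ZNF669 again moved apart. Neighbors also resemble each other in sequence, and the part of that was not tested. How often neighboring genes outside the set were called together was not computed.

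The proteins that KRAB domains recruit were followed as a list of 23 genes. From H1 to APLNR+ cells 1 rose and 3 fell, and from APLNR+ to CD31+CD34+ cells 7 fell, 2 of them with the GC trend removed. The 4 and 7 calls among 23 genes stand beside 15.9% and 29.6% of all genes called, and the 2 falls with the GC trend removed beside 9.86% of all genes lowered. At the last step 0 passed both thresholds with limma, with 12 at an unadjusted p under 0.05 and 11 at an adjusted one, and between H1 and CD43+ cells 2 were higher and 6 lower, beside 37.1% of all genes called. TRIM28 itself was abundant throughout, at 361 ± 17.1 FPKM in H1, 292 ± 33.6 in APLNR+ cells and later 455 ± 88.8 (CD31+CD34+) and 397 ± 65.4 (CD43+), and passed both thresholds in no comparison. SETDB1 stood at 18.5 ± 0.426, 15.6 ± 0.457, 21.3 ± 3.04 and 28.9 ± 4.11 FPKM.

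The HP1 genes fell as deposited. CBX3 was at 109, 97.1 and 101 FPKM in H1, 55.7, 57.9 and 62.5 in APLNR+ cells, and later at 13.2, 12.6 and 13.8 (CD31+CD34+) and 20.6, 18.2 and 20.1 (CD43+) (APLNR+ to CD31+CD34+, log2 change -2.07 ± 0.08, adjusted p 1.16e-09, and -1.22 with the GC trend removed). CBX1 dropped at the same step from 61.8 ± 7.25 to 19.1 ± 1.99 FPKM (-1.64, and -1.57 with the GC trend removed). CBX5 went from 33.8 ± 7.12 to 16.2 ± 3.11 FPKM (-1.01, and -0.36 with the GC trend removed). HDAC2, SMARCAD1, FAM208A and PPHLN1, subunits or partners of silencing complexes, were also called as deposited alone, with changes from -1.91 to -1.05.

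DNMT3B, the DNA methyltransferase typical of embryonic stem cells, was at 350, 370 and 359 FPKM in H1 and at 61.5, 66.3 and 61.3 in APLNR+ cells (log2 change -2.49 ± 0.09, adjusted p 2.49e-10). It stood at 51.7 ± 2.89 FPKM in CD31+CD34+ and 29.4 ± 2.68 in CD43+ cells. DNMT3A and RBBP7 also fell from H1 to APLNR+ cells (-1.08 and -1.06), and CHD3 rose from 2.43 ± 0.122 to 8.13 ± 0.453 FPKM (1.41, adjusted p 1.19e-07). RBBP7 was not called with the GC trend removed (-0.92).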

How the data were processed

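RNA of 12 libraries, 3 from each of 4 populations, was extracted with Trizol and sequenced on Illumina machines. The deposited values are FPKM per gene symbol, computed by the authors. The submitters' processing notes name BWA, Bowtie, RSEM and hg19, with no role given. Annotation, strand and scaling are not given in the sources used here. Of 58365 lines with values, 1 further line with text was left out. Depth is unknown, since FPKM holds no read totals.

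Groups came from the sample labels. Levels were analysed as log2(FPKM + 1) for genes at 1 FPKM or more in at least 3 libraries, with limma 3.58.1 in R 4.3.3 (all 4 populations in one fit, trended variance), and p values were adjusted by Benjamini-Hochberg over all 14840 genes. A call needed an adjusted p under 0.05 and a 2-fold change. With 3 libraries on each side, exact permutation p values stop at 0.1, so none are given. The fit was tested on simulated data. Figures and tables used Python 3.11.15, pandas 2.3.3 and matplotlib 3.10.9.

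The genes and lists were chosen with earlier results of these data known. Genes named were the 10 highest, the 10 largest rises and falls per comparison among calls without overlap between libraries, the 5 with the smallest range and the role lists. Genes named for lost calls, for neighbors or for changes under 2-fold were chosen after their values were seen. So were the promoters, their motifs, the genes plotted and the GC treatment, in which a lowess curve (span 0.3) of each library's deviation from the gene mean on the GC content of the longest GENCODE 29 transcript was subtracted. The KRAB pattern needed 6 of 8 residues in the longest reading frame and was set after seeing which known KRAB genes it missed. Transcript properties are from GRCh38, and no coordinate was converted. Replicate numbers are shared between populations, but the labels do not say that they mark a shared culture or batch. Alternatives covered scaling, filters, the pseudocount, the level that makes a member, left-out libraries and a replicate block.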

Additional observations from a re-analysis of the deposited data

How the results depend on the processing

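The counts of ZNF calls in the order APLNR+ against H1, CD31+CD34+ against APLNR+, CD43+ against CD31+CD34+ and CD43+ against H1 were 23, 53, 6 and 76. With no minimum change the first 3 became 90, 116 and 55, beside 57.9%, 73.8% and 53.6% of all genes. With 5 FPKM as the level, the second and last became 87 and 130, with 20 FPKM the first, second and last 13, 26 and 35, and over all tested ZNF genes 35, 100 and 154. These sets differ in size. Of the 409 ZNF genes tested, 8.56%, 24.4%, 1.47% and 37.7% were called in the same order. Of all genes tested, 15.9%, 29.6%, 14.4% and 37.1% were called. In the last comparison 5.62% of the 409 were raised and 32% lowered, beside 14.6% and 22.5% of all genes. Within the chosen set, with the GC trend removed, the second count was 18, also with the replicate block, and 22 in replicates 2 and 3 alone. The last count was then 49, 49 and 47. Leaving out 1 library gave 20 to 25, 51 to 54, 4 to 9 and 75 to 79. The KRAB cofactor counts became 2 for the first comparison with upper-quartile scaling and with the GC trend removed in replicates 2 and 3, 2 for the second and 5 for the last with the GC trend removed in each of its fits, and ranged from 3 to 4, 5 to 7, 0 to 1 and 7 to 8 without 1 library. ZNF24 reversed from -1.02 to 0.021 (CD31+CD34+ against APLNR+) with the GC trend removed in replicates 2 and 3. The cause of these changes was not tested. The fit with a replicate block called 23, 53, 6 and 76 ZNF genes. Deviations of same-numbered libraries correlated between -0.02 and 0.43, over 0.1 in all 3 pairs for the last 2 comparisons only. Of 3939 repeats of called ZNF results, 3678 kept the call, 260 lost it and 1 changed sign. Many repeats leave the log2 change as it was, so the share kept does not measure robustness. Among them are the fits without a library of a population not compared and the fit with a replicate block. Calls held under all alternatives run for 19, 16, 2 and 44 genes. The second and last counts include ZNF788, which has no GC value and was not refitted with the GC trend removed. FPKM without read totals limits statements on low levels.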
